A study of Mus musculus with 407 samples.

Results

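The genes described here encode the protein components of the cytosolic ribosome in mouse skeletal muscle. They were taken by symbol, as Rpl or Rps followed by a number and an optional letter, digit, x, l or y, plus Rpsa, Rplp0, Rplp1 and Rplp2, and no expression value entered the choice. The rule found 85 of the 24458 gene symbols in the count tables. Of these, 46 encode proteins of the large subunit, 31 encode proteins of the small subunit, and 8 are paralogs of a standard subunit protein (Rpl3l, Rpl7l1, Rpl10l, Rpl22l1, Rpl36al, Rpl39l, Rps4l and Rps27l). The other 77 are called the core genes below.

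The diaphragm and 3 limb muscles (gastrocnemius, soleus and tibialis anterior) of C57BL/6J mice were sequenced from total RNA after removal of ribosomal RNA, in libraries that keep the strand. Males and females were sampled at an age of 6 months and at 12, 18, 21, 24 or 27, with 6 to 10 libraries in each of the 48 combinations of muscle, sex and age, and each library is 1 muscle of 1 mouse. The mice carried no engineered allele and received no treatment. They were bought at various ages and housed at the study's facility before collection, and mice of 1 age were collected on 1 day, so that age and collection day cannot be told apart.

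A ribosome needs 1 copy of nearly every one of these proteins, and cells make them from single functional genes that are transcribed at high levels and whose mRNAs are long-lived. Most of these mRNAs start with a cytosine followed by an unbroken run of pyrimidines, the 5′ terminal oligopyrimidine (TOP) motif, through which mTORC1 and the binding protein Larp1 control how much of the mRNA is translated rather than how much is made. In skeletal muscle, ribosome number limits protein synthesis and is tied to growth and to loss of mass. A few standard proteins have paralogs with narrow tissue ranges, and the best known in muscle is Rpl3l, which replaces Rpl3, a protein near the catalytic centre of the large subunit, in differentiated striated muscle fibres. RNA-seq of total RNA measures mRNA level and not translation or ribosome number.

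The sequence around the annotated transcription start was read for these genes and for all annotated promoters. RefSeq promoter windows (build GRCm38.p6, 250 bases before the start and 50 from it) were matched for 64 of the genes, which had 76 windows. A TOP run was here a C within 5 bases of the annotated start followed by at least 4 further C or T. Letters before that C were not considered. Such a run was found in 31 of these 76 windows (40.8%) and in 6027 of all 32851 windows (18.3%). The letters CCGGAA on either strand, the core of a site for ETS factors, were found upstream of the start in 35.5% of the windows of these genes and in 12% of all windows. The letters TATAAA of a TATA box were sought on the sense strand anywhere in the 250 bases before the start, with no limit on their position. They were found in 2.63% of the windows of these genes and in 7.59% of all windows. The following stretches of 26 bases run from 12 bases before the annotated start to 14 bases from it, so that the start is the base 13 letters in, with the TOP run in capitals. The first 6 genes carry the run and are shown because their values by age or muscle are given below. In Rpl19 the C and T letters go on before the capitals, which open where the search did. Its annotated start is the g after the capitals.
Rpl19, chr11:98026912-98026937, plus strand: gctctccCCTTCgcagataatgggcg
Rps6, chr4:86857354-86857379, minus strand: cggaagtcgggCCTCTTTTTCgtgac
Rpl12, chr2:32961700-32961725, plus strand: ggagcaggatccgtCTTTTCggcttt
Rpl15, chr14:18270973-18270998, minus strand: ggagaaagCCTTCTTCCTTTCCTCTg
Rps27, chr3:90213635-90213660, minus strand: tccgctttcgCTCCTTTCCggcggtg
Rplp2, chr7:141447639-141447664, plus strand: gtcagcgtCTTCCTTTCgccgccgga
The paralog Rps27l held a short run, and both annotated starts of Rpl3l held none, as was so for most windows of these genes. No window was matched for Rpl3, so that the pair was not compared here.
Rps27l, chr9:66946074-66946099, plus strand: ctcctccccgccgCCTCTatcccgga
Rpl3l, first start, chr17:24727814-24727839, plus strand: tgttctagctctgtcatttgacctct
Rpl3l, second start, chr17:24732673-24732698, plus strand: atcaacagctacagtgccccaaatgt
For Rpl4, Rpl5 and Rps25, standard genes that rose with age in the tibialis anterior, no such run was found within 5 bases of the annotated start. The letters of Rpl4 open with a run of C and T further upstream, so that its difference from Rpl19 rests on where the search began.
Rpl4, chr9:64173375-64173400, plus strand: cttttcctgtgggagcagccgggtag
Rpl5, chr5:107900516-107900541, plus strand: cacgtcgcttgcgtgctggtggtgct
Rps25, chr9:44407702-44407727, plus strand: ttccgacatcttagcgaggctgctgt
An annotated start can lie some bases from the start used in muscle, and a window without the run says nothing of the mRNA beyond these letters.

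Library totals ran from 38583802 to 300089909 counts with a median of 72766895, so that counting error is small for all but the lowest of these genes. Of the libraries, 10 stood apart. In 8 of them the level of the other expressed genes rose or fell with the GC content of their transcripts by more than 0.6 on the log2 scale per 10 percentage points, against slopes of -0.151 to 0.274 in the libraries that did not stand apart. In 3 of them liver genes summed to more than 1000 CPM (the count of a gene scaled to a fixed library size), against at most 602 in the rest, and 1 library did both. Diaphragm accounted for 7 of the 10. The 77 core genes followed the slope there, with a Pearson correlation between slope and mean log2 CPM of 0.79 over 48 male and 0.76 over 50 female diaphragm libraries, and of -0.35 and -0.59 without the libraries that stood apart. Results in the diaphragm, gastrocnemius and female soleus are therefore given with and without these libraries where they differ. The male soleus and both sexes of tibialis anterior held none of them.

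**Figure D1:**
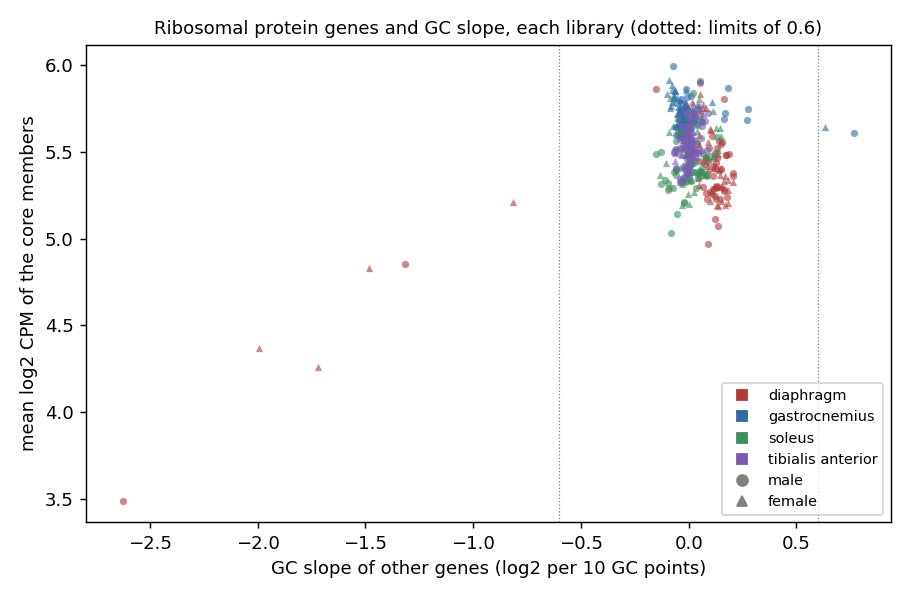
Mean log2 CPM of the 77 core ribosomal protein genes (vertical axis) against the slope of the other genes' level on GC content, in log2 units per 10 percentage points of GC (horizontal axis), 1 point per library, coloured by muscle; dotted lines mark slopes of -0.6 and 0.6. The 5 diaphragm libraries with slopes of -1.317 to -2.626 lie below all others, the one with a slope of -0.8145 lies within the range of the others at 5.21, and the lowest mean, 3.49, belongs to the library with the slope of -2.626.

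Per kilobase of transcript, the median gene of the set stood at 66.3 CPM over all libraries and the median core gene at 69 CPM. Among the highest levels were those of Rps2 (300 CPM per kilobase), an essential protein near the mRNA entry channel, Rpl10 (226), which completes the large subunit late in its assembly, and Rps3a1 (211). The stalk protein Rplp0, which anchors the elongation factor binding site, stood at 157 and its partners Rplp2 and Rplp1 at 24 and 12.6. Rpsa, a small-subunit protein also named for laminin binding, stood at 107, Rps6, the target of S6 kinase, at 117, Rpl13a at 39.1 and Rps27a, made as a fusion with ubiquitin, at 52.9. Genes whose proteins, outside the stalk, occur once in each ribosome thus differed widely in counts per length. Of the 85 genes, 61 have named pseudogenes, 293 in all, and reads shared with these copies may be counted for either, so that differences in level between genes are uncertain. The Spearman correlation of the level with the number of pseudogenes was 0.28 over 84 genes, and that with GC content was 0.19. The transcripts given for Rps20 (3706 bases) and Rps15a (5130 bases) are far longer than the mature mRNAs are known to be, which lowers their level per kilobase.

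The paralogs ranged from among the abundant to not expressed. Rpl3l stood at 77.2 CPM per kilobase and its standard partner Rpl3 at 26.2. Rps27l, which p53 induces, stood at 36.1 against 6.58 for Rps27, a zinc-finger protein of the small subunit. Rpl36al stood at 14.1 against 19.4 for Rpl36a, Rpl22l1 at 6.85 against 21.2 for Rpl22, and Rpl7l1 at 5.96 against 148 for Rpl7. Rpl39l, known from testis, stood at 0.0199 and was at 0 counts in 174 libraries, where Rpl39 of the exit tunnel stood at 30.8. Rpl10l, also a testis gene, had no count in 406 libraries. Its highest level, in 1 female diaphragm, was 0.0345 CPM.

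The standard deviation of log2 CPM within a group had a median of 0.148 over the genes. The steadiest were Rpl15 (0.078), Rpl7a (0.0826) and Rpl4 (0.0851), all proteins of the large subunit. Rpl30 (2.07) was the least steady, with 49 libraries at 0 counts and a median level of 0.47 CPM per kilobase, followed by Rpl39l (1.45), Rpl34 (0.909) and Rps4l (0.558). Counts of Rpl30, a highly expressed gene in most cells, are therefore taken as uncertain here.

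**Figure D2:**
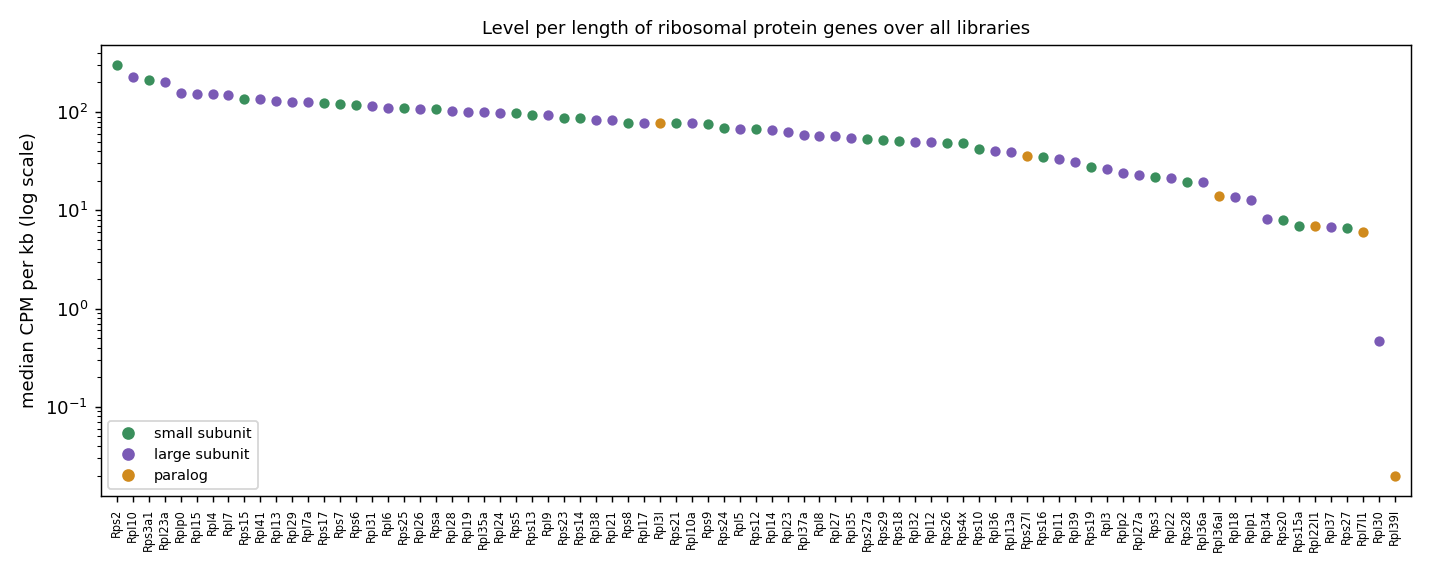
Median level of ribosomal protein genes over all libraries, in CPM per kilobase on a log axis, 1 point per gene drawn with genes along the horizontal axis from the highest to the lowest, coloured as small subunit, large subunit or paralog; Rpl10l, with a median of 0, is not drawn. The levels fall gradually from Rps2 (300), Rpl30 (0.47) lies far below the other core genes, and Rpl3l (77.2) is the highest of the paralogs.

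Age was compared with edgeR's quasi-likelihood test in each muscle and sex, 10 libraries at 27 months against 8 at 6 months, with the ages between in the same fit and Benjamini-Hochberg adjustment over all genes tested. Of the 85 genes, 83 passed the filter on low counts, and Rpl10l and Rpl39l did not. A gene was called at an adjusted p under 0.05. The changes of most genes were small. The median of the set lay above that of all genes in the tibialis anterior and diaphragm of both sexes and below it in the female gastrocnemius and soleus. In the male gastrocnemius and soleus and the female diaphragm few or no genes were called, and in the male diaphragm which genes were called changed without the libraries that stood apart. Less mRNA per cell and fewer cells of a type cannot be told apart in whole muscle.

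In the tibialis anterior, 13 genes rose and none fell in males, where 9.97% of all genes rose and 7.81% fell. In females 11 rose and 1 fell, where 12.1% of all genes rose and 9.84% fell. The median log2 fold change of the set was 0.08 in males and 0.06 in females, against 0.01 and 0 over all genes, and it was above 0 for 73 of 83 genes in males and 72 of 83 in females. The genes that rose in both sexes numbered 9, which is 69.2% of the male and 81.8% of the female list. They were Rpl3, Rpl4, Rpl5, Rpl6, Rpl17, Rpl19, Rpl23, Rps6 and Rps25. In the same libraries fibroblast markers had summed medians of 706 CPM at 6 and 450 CPM at 27 months in males and 691 and 479 CPM in females, and lymphocyte markers 0.554 and 1.2 CPM in males and 0.427 and 1.42 CPM in females, and their part in the result was not tested. In females the share of the set that rose was near that of all genes.

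Rpl4, which lines the peptide exit tunnel, ran from 222 to 247 CPM with a median of 232 in males at 6 months and from 244 to 285 CPM with a median of 252 at 27 months. The ranges overlapped only between 244 and 247 CPM, and the log2 fold change was 0.16 (SE 0.032, adjusted p = 0.00045). In females Rpl4 ran from 234 to 253 CPM (median 247) at 6 months and from 246 to 287 CPM (median 257) at 27 months, which is a log2 fold change of 0.09 (adjusted p = 0.0187). Rpl5, which with Rpl11 carries 5S rRNA and binds Mdm2 when assembly is disturbed, ran from 114 to 131 CPM (median 122) in young and from 126 to 159 CPM (median 136) in old males. It rose by 0.19 (SE 0.04, adjusted p = 0.000531) in males and by 0.14 (SE 0.032, adjusted p = 0.000956) in females, where the medians were 131 and 140 CPM and the ranges overlapped.

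Rps25, a small-subunit protein used in initiation at internal entry sites, went from a median of 103 CPM (95.3 to 113) to 118 CPM (107 to 134) in males. Its log2 fold change was 0.20 (SE 0.046, adjusted p = 0.00129), and in females it was 0.16 (SE 0.04, adjusted p = 0.00223) with medians of 111 and 118 CPM. Rpl19, which helps bridge the subunits, had a median of 67.3 CPM (59.9 to 72.6) in young and 72.5 CPM (69.5 to 76.2) in old males and rose by 0.12 (adjusted p = 0.00907). In females it went from 71.7 CPM (69.9 to 76.5) to 76.6 CPM (72.9 to 88) and rose by 0.15 (SE 0.033, adjusted p = 0.00064). Each of these genes overlapped between the ages in both sexes. Rps6, whose phosphorylation reports mTORC1 activity, went from a median of 91.8 CPM (89.5 to 96) to 100 CPM (93.2 to 108) in males, a log2 fold change of 0.14 (adjusted p = 0.00755), and changed by 0.09 (adjusted p = 0.045) in females.

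Rpl23 rose by 0.17 (SE 0.041, adjusted p = 0.00247) in males and by 0.11 (adjusted p = 0.0429) in females, and Rpl17, at the exit of the peptide tunnel, by 0.11 (adjusted p = 0.00592) and 0.10 (adjusted p = 0.00484). The 1 gene that fell in females was Rps2, from a median of 361 CPM (334 to 411) to 327 CPM (297 to 356), with a log2 fold change of -0.14 (SE 0.04, adjusted p = 0.00988). With TMM factors, DESeq2's size factors, library totals alone and an offset for GC content, 11 genes rose in males under all 4 and 11 in females. The median over the set at the 5 later ages, from 12 to 27 months, was -0.03, 0.04, 0.06, 0.04 and 0.08 in males and 0.01, -0.01, 0.03, 0.01 and 0.06 in females.

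In the female gastrocnemius, 24 genes fell and 1, Rpl3, rose, where 14.6% of all genes fell and 14.6% rose. The median log2 fold change of the set was -0.08 against 0.02 over all genes, and 9 of 83 genes were above 0. Both subunits contributed, with 9 of 31 small-subunit and 15 of 46 large-subunit genes called. Rps4x, an X-linked protein of the small subunit, ran from 46.1 to 53.7 CPM (median 51.2) at 6 months and from 41.7 to 47 CPM (median 43.3) at 27 months and fell by 0.20 on the log2 scale (SE 0.043, adjusted p = 0.000332). Rpl12, at the base of the stalk, had a median of 75.3 CPM (70.4 to 82.3) and later 66.8 CPM (57.4 to 70.7), with a log2 fold change of -0.17 (SE 0.038, adjusted p = 0.000414). The ranges of both genes overlapped by less than 1 CPM.

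Rps24, one of the genes mutated in Diamond-Blackfan anaemia, had medians of 112 CPM (101 to 123) and 97.6 CPM (81.7 to 103) and changed by -0.20 (SE 0.045, adjusted p = 0.000418). Rpl15, mutated in the same disease, had medians of 156 CPM (137 to 159) and 140 CPM (131 to 150) and changed by -0.12 (SE 0.027, adjusted p = 0.000454). Rpl9 had medians of 83.7 CPM (75.6 to 84.8) and 73.4 CPM (68.8 to 81.4) and changed by -0.13 (SE 0.028, adjusted p = 0.000469). The ages overlapped for all 3. These falls are changes relative to the other genes. Scaling to library totals alone moved the median of all genes to 0.14 and that of the set to 0.04, and the count became 5 higher and 0 lower. Without the library that stood apart, 29 genes fell, 22 of them in both lists. In the same samples fast-fibre markers had a summed median of 53900 CPM at 6 and 47000 CPM at 27 months, slow-fibre markers 638 and 1070 CPM, fibroblast markers 1070 and 704 CPM and macrophage markers 77.5 and 94.1 CPM, and their part in the result was not tested. At 21 months 16 genes were lower and 1 higher than at 6 months, where 7.66% of all genes were lower, and at 24 months 1 was lower and 1 higher. From 12 to 27 months the medians were -0.01, -0.02, -0.08, -0.02 and -0.08.

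In the male gastrocnemius 2 genes rose and 3 fell, where 10.6% of all genes rose and 12.6% fell, and the median of the set was 0.01 against 0 over all genes. Rpl3 and Rpl19 rose and Rpl3l, Rpl22l1 and Rpl9 fell. Rpl19 had medians of 75.1 CPM (72.3 to 79) and 80.5 CPM (76.4 to 85.7) and a log2 fold change of 0.10 (SE 0.029, adjusted p = 0.00574). Rpl22l1, the paralog of Rpl22 with which it shares cross-regulation, had medians of 4.3 CPM (3.82 to 6.06) and 3.46 CPM (3.14 to 4.45) and a change of -0.33 (SE 0.12, adjusted p = 0.0365). Rpl9 had medians of 76.4 CPM (71.3 to 79.6) and 70.6 CPM (66.9 to 73.4) and changed by -0.09 (SE 0.031, adjusted p = 0.0358), so that it fell in both sexes of this muscle. All 3 overlapped between the ages. Under library totals alone the count was 7 higher and 0 lower, and without the library that stood apart it was 4 higher and 2 lower.

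In the female soleus 10 genes fell and none rose, where 8.74% of all genes fell and 10% rose, with a median of -0.09 against -0.03 over all genes. At an unadjusted p under 0.05, 18 genes differed in either direction, and DESeq2 called 1 gene higher where limma-voom called none. Rps29, a zinc-finger protein of the small-subunit head, ran from 12.3 to 26.6 CPM (median 18.3) at 6 months and from 7.13 to 17 CPM (median 12.5) at 27 months. It fell by 0.60 on the log2 scale (SE 0.16, adjusted p = 0.00622). Rps4l, a little studied paralog of Rps4x, went from a median of 0.99 CPM (0.74 to 1.62) to 0.616 CPM (0.146 to 0.845) and fell by 1.05 (SE 0.29, adjusted p = 0.00719). Both genes overlapped between the ages.

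Rpl38, known for selective translation of homeobox mRNAs in the embryo, had medians of 30.7 CPM (27.7 to 38.7) and 23.8 CPM (21 to 31.5) and a change of -0.35 (SE 0.11, adjusted p = 0.0162). Rpl36a had medians of 11.3 CPM (8.92 to 12.9) and 9.36 CPM (6.41 to 10.7) and a change of -0.30 (SE 0.084, adjusted p = 0.009). Rpl37a, a further zinc-finger protein, had medians of 34.4 CPM (29.1 to 43.7) and 27.2 CPM (23.4 to 33.7) and a change of -0.33 (SE 0.11, adjusted p = 0.02). The other genes that fell were Rpl26, Rpl27a, Rpl41, Rps24 and Rps28, of which Rpl41 encodes the shortest protein of the ribosome. All of the 10 but Rpl26 fell under each of the 4 scalings. Under library totals alone 73 genes fell, with the median of all genes at -0.22. Fibroblast markers summed to a median of 2190 CPM at 6 and 919 CPM at 27 months here, and slow-fibre markers to 12400 and 12300 CPM, and the part of the first in the result was not tested.

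In the male soleus 1 gene, Rpl3l, fell and none rose at 27 months, where 1.05% of all genes fell and 1.8% rose. At an unadjusted p under 0.05 there were 3, and limma-voom and DESeq2 called none higher either. The male soleus differed at 24 months, when 11 genes were higher and none lower than at 6 months, where 2.97% of all genes were higher. The median of the set was 0.17 at that age against 0.02 at 27 months, with 79 of 83 genes above 0. Rpl12 had medians of 57.2 CPM (52.9 to 61.5) at 6 and 67.9 CPM (60 to 89.5) at 24 months and a log2 fold change of 0.28 (SE 0.065, adjusted p = 0.0087). Rpl21 had medians of 76.3 CPM (73.5 to 91.5) and 95 CPM (82.4 to 115) and a change of 0.28 (SE 0.066, adjusted p = 0.0095). Rpl39, which lies in the exit tunnel, had medians of 17.9 CPM (15.8 to 19.7) and 22.9 CPM (17.1 to 26.8) and a change of 0.35 (SE 0.097, adjusted p = 0.0297). The groups overlapped for all 3, and under library totals alone 2 genes were called.

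In the male diaphragm 9 genes rose and none fell, where 5.13% of all genes rose and 3.52% fell, and the median of the set was 0.23 against 0.02 over all genes. At an unadjusted p under 0.05, 20 genes differed, and limma-voom and DESeq2 called 3 and 8 genes higher and none lower. The medians at 12, 18, 21 and 24 months were 0.12, 0.2, 0.25 and 0.15, so that the 6-month group stood below every later one. That group held the library with the steepest GC slope. Without the libraries that stood apart, the mean log2 CPM of the core genes was 5.28 at 6 months and 5.36, 5.43, 5.48, 5.38 and 5.49 at the later ages, so that the 6-month group was still the lowest. Rps27 had medians of 1.67 CPM (0.496 to 2.88) and 2.43 CPM (1.81 to 12.9) and a log2 fold change of 1.03 (SE 0.28, adjusted p = 0.0181), and of 0.87 (adjusted p = 0.0312) without the libraries that stood apart. Rpl4 had medians of 145 CPM (98 to 156) and 161 CPM (148 to 248) and a change of 0.33 (SE 0.083, adjusted p = 0.0128), which was 0.18 (adjusted p = 0.055) without them. The ages overlapped for both genes.

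Rpl17 had medians of 72.1 and 82.9 CPM and a change of 0.37 (SE 0.11, adjusted p = 0.0335), which was 0.25 (adjusted p = 0.0756) without the libraries that stood apart. The fitted change of Rpl30 was 4.78 (adjusted p = 0.0424) although its median was 0.57 CPM at 6 and 0.502 CPM at 27 months, with 138 CPM in 1 old library that stood apart. Without the libraries that stood apart it was -0.29 (adjusted p = 0.89). In all, 7 genes rose without those libraries and 3 of these were among the 9, Rpl3, Rps13 and Rps27. With the run of sample numbers as a further term no gene was called by edgeR's quasi-likelihood test, and the median was 0.14. In the female diaphragm no gene was called by edgeR's quasi-likelihood test, limma-voom or DESeq2, where 0.624% of all genes rose and 0.988% fell, and 1 gene had an unadjusted p under 0.05.

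**Figure D3:**
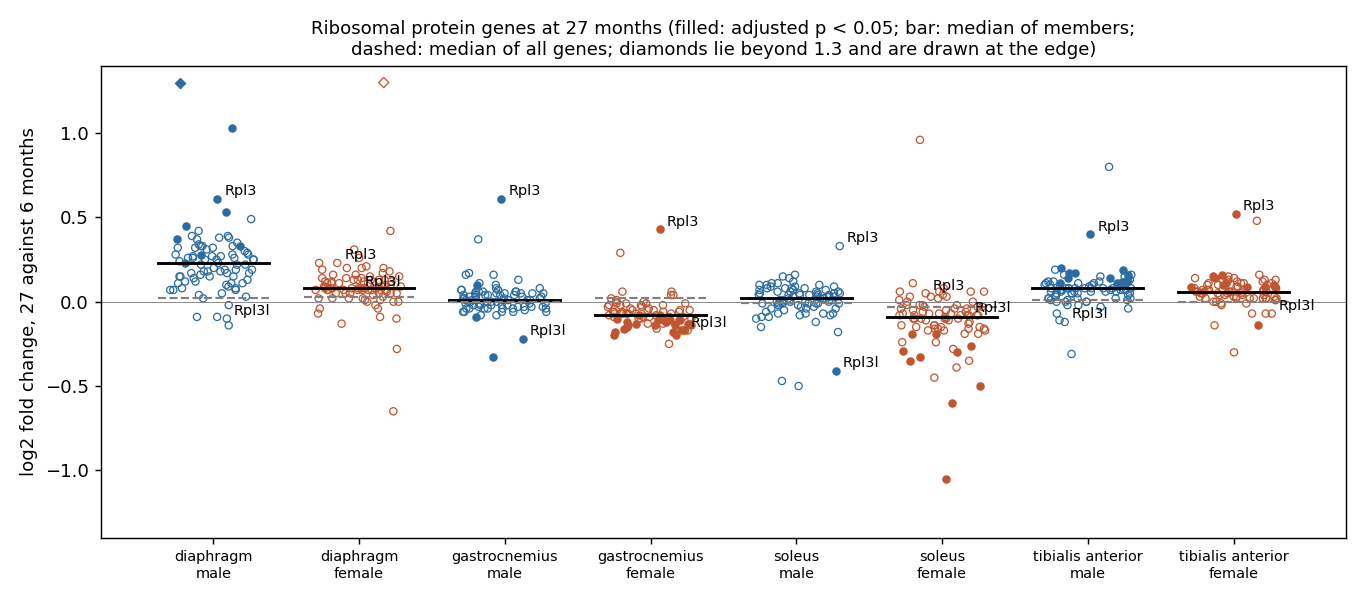
Log2 fold change of each of 83 ribosomal protein genes at 27 against 6 months (vertical axis) in the 8 combinations of muscle and sex (columns); filled points have an adjusted p under 0.05, the solid bar is the median of the set, the dashed bar the median of all genes, and diamonds at the edge mark values beyond 1.3 in size. The set sits above the median of all genes in the tibialis anterior (0.08 and 0.06) and male diaphragm (0.23) and below it in the female gastrocnemius (-0.08) and soleus (-0.09).

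A fold above 1.5 with an adjusted p under 0.05 at any older age was rare in the set. In the male diaphragm 3 genes met it (Rpl3, Rps27 and Rpl30), where 11% of all genes did, in the male gastrocnemius 1 did (Rpl3), where 8.06% of all genes did, and in the female soleus 2 did (Rps29 and Rps4l), where 8.52% of all genes did. By edgeR's quasi-likelihood test none met it in the male soleus, male tibialis anterior, female diaphragm, female gastrocnemius or female tibialis anterior, where 2.85%, 8.53%, 2.95%, 9.44% and 9.25% of all genes did. Of the 83 genes tested, the share past the fold limit was thus below that of all genes in each muscle and sex.

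Rpl3 and its muscle paralog Rpl3l moved apart with age. Rpl3 was called higher in 5 of the 8 combinations of muscle and sex at 27 months, and its log2 fold change was above 0 in all 8. Rpl3l was called lower in 3 and its change was below 0 in 7. In the male gastrocnemius Rpl3 ran from 20 to 27.1 CPM (median 22.2) at 6 months and from 27.5 to 40.6 CPM (median 36.1) at 27 months, so that the groups did not overlap. The log2 fold change was 0.61 (SE 0.089, adjusted p = 7.19e-07). In females of this muscle it went from a median of 25.2 CPM (21.4 to 27.8) to 34.4 CPM (26.9 to 37.9) and changed by 0.43 (SE 0.077, adjusted p = 2.48e-05), with an overlap of less than 1 CPM.

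In the tibialis anterior Rpl3 had medians of 20.1 CPM (18.8 to 22.7) and 26.5 CPM (21.5 to 34) in males, a change of 0.40 (SE 0.097, adjusted p = 0.00244). In females it had medians of 21.2 CPM (18.4 to 24.1) and 28 CPM (22.3 to 38.6), a change of 0.52 (SE 0.088, adjusted p = 1.87e-05). The ranges overlapped in both sexes. In the male diaphragm the change of Rpl3 was 0.61 (SE 0.18, adjusted p = 0.0272), with medians of 50.9 and 65.3 CPM, and it was 0.49 (adjusted p = 0.0421) without the libraries that stood apart. Over 10 alternative fits this change ran from 0.37 to 0.68 and was called in 6 of them. In the male soleus it was 0.33 (SE 0.12, adjusted p = 0.14), in the female diaphragm 0.23 (adjusted p = 0.598) and in the female soleus 0.05 (adjusted p = 0.823), none of which passed the test. In the gastrocnemius and tibialis anterior of both sexes its changes at 12 and 18 months lay between -0.11 and 0.05. At 21 months they were 0.18 (adjusted p = 0.238) in the male and 0.29 (adjusted p = 0.00927) in the female gastrocnemius, -0.01 (adjusted p = 0.976) in the male and 0.16 (adjusted p = 0.295) in the female tibialis anterior. At 24 months they were 0.37 (adjusted p = 0.00247) in the male and 0.38 (adjusted p = 0.000234) in the female gastrocnemius, 0.36 (adjusted p = 0.00754) in the male and 0.22 (adjusted p = 0.0804) in the female tibialis anterior.

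Rpl3l in the male gastrocnemius ran from 146 to 172 CPM (median 157) at 6 months and from 106 to 159 CPM (median 133) at 27 months and fell by 0.22 on the log2 scale (SE 0.053, adjusted p = 0.00136). In the male soleus it went from a median of 85.1 CPM (64.2 to 102) to 64.5 CPM (47 to 80.7) and fell by 0.41 (SE 0.1, adjusted p = 0.0128). In the female gastrocnemius it went from a median of 147 CPM (132 to 154) to 122 CPM (108 to 149) and fell by 0.17 (SE 0.049, adjusted p = 0.00534). The ranges overlapped in all 3. The calls in both sexes of the gastrocnemius were lost under library totals alone, where the changes were -0.15 in males and -0.05 in females. In the tibialis anterior the change of Rpl3l was -0.12 (adjusted p = 0.271) in males and -0.07 (adjusted p = 0.387) in females, and in the female soleus it was -0.08 (adjusted p = 0.557). In the diaphragm it was -0.10 (adjusted p = 0.796) in males and 0.07 (adjusted p = 0.934) in females.

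The ratio of Rpl3l to Rpl3 within a library does not depend on scaling between libraries. Its log2 value per length was compared between 27 and 6 months by an exact two-sided permutation test in each of the 8 combinations, with Benjamini-Hochberg adjustment over the 8. In the male gastrocnemius it was 2.78 ± 0.152 (SD, n = 8) at 6 months and 1.94 ± 0.338 (SD, n = 10) at 27 months, a difference of -0.84 (exact permutation p = 6.86e-05, adjusted 0.000549). In the female gastrocnemius it went from 2.50 to 1.90 (exact permutation p = 0.000206, adjusted 0.000792). The difference was -0.52 (exact permutation p = 0.000411, adjusted 0.000822) in the male tibialis anterior and -0.56 (exact permutation p = 0.000297, adjusted 0.000792) in the female one. In the male soleus the mean went from 1.10 to 0.36 (exact permutation p = 0.0019, adjusted 0.00304).

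In these 5 combinations all 10 old libraries lay below the 6-month mean. The difference did not pass the test in the male diaphragm (-0.67, exact permutation p = 0.0892, adjusted 0.119), where 8 of 10 old libraries lay below, nor in the female diaphragm (-0.11, adjusted exact permutation p = 0.737) or female soleus (-0.10, exact permutation p = 0.648, adjusted 0.737). The calls did not change without the libraries that stood apart. This test was chosen after the changes of the pair had been seen. No difference in the change of Rpl3 or Rpl3l between muscles or sexes passed edgeR's quasi-likelihood test of the interaction, and the change of Rpl3 in the female soleus minus that in the female gastrocnemius was -0.37 on the log2 scale (SE 0.16, adjusted p = 0.162).

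As a share of the pair per length, Rpl3l made up a median of 87.3% at 6 months in the male gastrocnemius (85.1 to 88.6%) and 77.7% at 27 months (74.3 to 85%), so that the ranges did not overlap. The medians at 12, 18, 21 and 24 months were 87.9%, 86.9%, 84.4% and 83.1%. In females of this muscle the share went from 84.7% to 78.4%, in the tibialis anterior from 87.8% to 83.9% in males and from 87.3% to 82.4% in females, and in the male soleus from 69.5% to 58.2%. In the female soleus the medians were 56.8% and 58.7%, and in the female diaphragm 44.8% and 45%. Rpl3l thus remained the more abundant of the pair per length in every group median of the gastrocnemius and tibialis anterior. Fast-fibre markers summed to a median of 55400 CPM at 6 and 48900 CPM at 27 months in the male gastrocnemius and slow-fibre markers to 279 and 403 CPM. In the male tibialis anterior fast-fibre markers stood at 41600 and 42100 CPM and slow-fibre markers at 13 and 12.2 CPM, and in the female tibialis anterior at 42700 and 44500 CPM and at 39 and 49.7 CPM. Macrophage markers had medians of 83.5 and 96.1 CPM in the male gastrocnemius and 47.3 and 54.3 CPM in the male tibialis anterior. Fibroblast markers had medians of 1060 and 683 CPM in the first and 706 and 450 CPM in the second. Endothelial markers had medians of 207 and 208 CPM and of 242 and 239 CPM. The part of all these markers in the result was not tested.

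**Figure D4:**
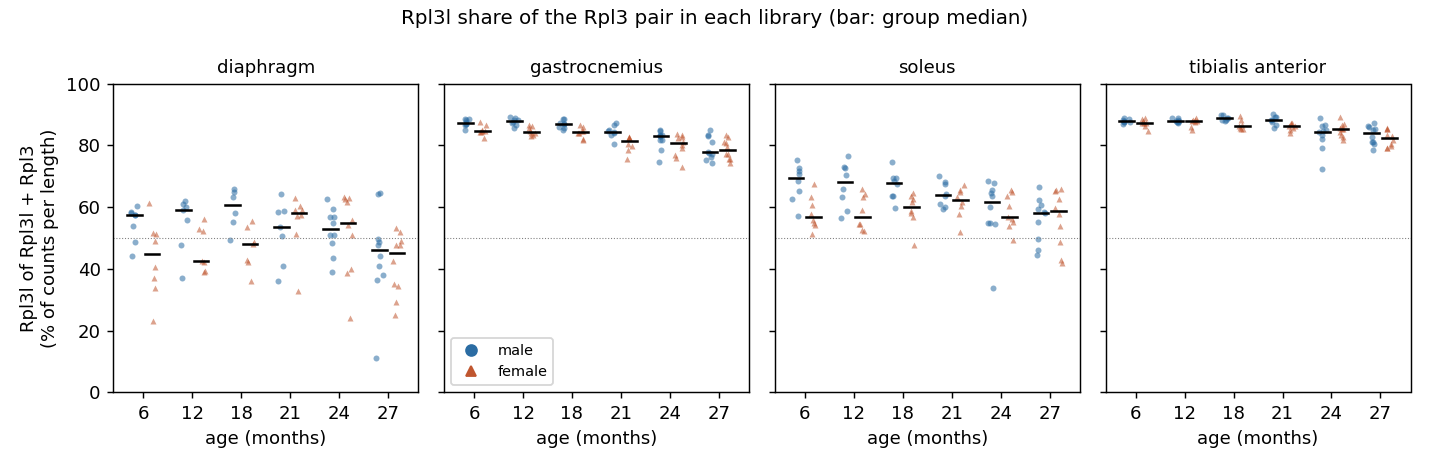
Rpl3l as a percentage of Rpl3l plus Rpl3, both per kilobase of transcript (vertical axis), by age in months (horizontal axis) in 4 panels by muscle, 1 point per library coloured by sex, with bars at the group medians. At 6 months the median share is 87.3% in the male and 84.7% in the female gastrocnemius. It is 87.8% in the male and 87.3% in the female tibialis anterior. In these muscles the medians are lower at 27 months, while in the diaphragm the share is lower and more scattered at all ages.

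Among the other paralogs, Rps4l fell in the female soleus and Rpl22l1 in the male gastrocnemius, as given above. Rps27l had log2 fold changes of -0.10 to 0.06 at 27 months and was called in none of the 8 combinations, and neither were Rpl36al and Rpl7l1. Rpl22, the partner of Rpl22l1, fell in the female gastrocnemius (-0.14, adjusted p = 0.0125). Rpl7 fell in the female gastrocnemius (-0.13, adjusted p = 0.00333). Rplp0, Rplp1 and Rplp2 of the stalk, Rpsa, Rpl13a and Rps27a were called in none, and the value of Rplp1 in the female soleus was -0.39 (adjusted p = 0.0946).

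The muscles were compared with the gastrocnemius in each sex with the 6 ages weighted equally, over the 84 genes that passed the filter. Libraries of different muscles of 1 mouse were treated as independent. On the TMM scale most ribosomal protein genes were lower in each of the other muscles. In the diaphragm 71 were lower and 9 higher in males, where 42.3% of all genes were lower and 43% higher, and 61 lower and 11 higher in females, where 39.3% were lower and 47.3% higher. In the soleus 57 were lower and 11 higher in males, where 37.8% of all genes were lower and 35.3% higher, and 51 lower and 11 higher in females, where 36.7% were lower and 37.9% higher. In the tibialis anterior 43 were lower and 15 higher in males, where 25.7% of all genes were lower and 29.4% higher, and 46 lower and 12 higher in females, where 32.2% were lower and 25.3% higher.

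These directions depended on the scaling. The median log2 difference of the set from the gastrocnemius was -0.39 in the male and -0.32 in the female diaphragm, against 0.02 and 0.10 over all genes. With library totals alone the median of all genes moved to 0.74 and 0.77 and that of the set to 0.34 and 0.37, with 64 genes higher and 7 lower in males and 64 higher and 6 lower in females. With an offset for GC content the set's medians were -0.01 and -0.03, with 30 higher and 35 lower in males and 27 and 38 in females. Without the libraries that stood apart 13 genes were higher and 59 lower in the male diaphragm, with a median of -0.23. In the female diaphragm 9 were then higher and 66 lower, with a median of -0.32. In the soleus the medians of the set were -0.20 and -0.18 and became 0.04 and 0.06 with library totals, where 29 genes were higher and 23 lower in males and 32 and 18 in females. With the GC offset 22 and 17 genes were higher in the soleus. The medians in the tibialis anterior were -0.09 and -0.12 and became -0.34 and -0.32 with library totals, where 75 and 70 genes were lower and 2 and 1 higher. Without the libraries that stood apart they were -0.15 and -0.12, with 59 and 53 genes lower and 13 and 14 higher. As a share of all counts, the set took a median of 0.651% in the male diaphragm and 0.688% in the female diaphragm. The gastrocnemius had shares of 0.535% and 0.584% and the tibialis anterior 0.427% and 0.467%, with the soleus between diaphragm and gastrocnemius at 0.562% and 0.616%. The values below are of genes whose direction was the same under TMM, DESeq2's size factors, library totals and GC offsets unless stated.

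Rpl3 and Rpl3l differed between the muscles in opposite directions. Rpl3 in males ran from 22.3 to 152 CPM (median 52) in the diaphragm, from 30.3 to 94 CPM (median 40.4) in the soleus and from 18.2 to 40.9 CPM (median 25.1) in the gastrocnemius. It was 1.06 (SE 0.051, adjusted p = 1.03e-48) higher on the log2 scale in the male and 1.17 (SE 0.048, adjusted p = 2.16e-58) higher in the female diaphragm, and 0.71 (adjusted p = 1.94e-30) and 0.79 (adjusted p = 2.47e-37) higher in the soleus. The ranges overlapped in both muscles. It was lower in the tibialis anterior, by -0.18 in males and -0.27 in females. Rpl3l in males ran from 19.3 to 88.1 CPM (median 64.5) in the diaphragm and from 47 to 102 CPM (median 72.4) in the soleus, all below the gastrocnemius, where it ran from 106 to 176 CPM (median 147). The differences of Rpl3l were -1.27 (SE 0.051, adjusted p = 2.85e-59) and -1.21 (SE 0.042, adjusted p = 1.66e-69) in the diaphragm and -0.96 (SE 0.049, adjusted p = 1.21e-45) and -0.93 (SE 0.041, adjusted p = 5.33e-54) in the soleus.

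Per kilobase the pair was near parity in the diaphragm and far from it in the gastrocnemius and tibialis anterior. Rpl3 and Rpl3l stood at medians of 41.9 and 45.5 CPM in the diaphragm and 32.5 and 51.7 CPM in the soleus, against 19.9 and 102 CPM in the gastrocnemius and 16.1 and 106 CPM in the tibialis anterior. Fast-fibre markers summed to medians of 51600 CPM in the male gastrocnemius and 42800 CPM in the tibialis anterior against 18900 CPM in the diaphragm and 14600 CPM in the soleus. Slow-fibre markers summed to 345, 12.1, 1320 and 7930 CPM in the same order. These sums are scaled to library totals alone and the levels of the pair with TMM. The part of the marker sums in the difference was not tested.

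Rps27l had its highest medians in the tibialis anterior in both sexes. It ran from 21.9 to 31.2 CPM (median 25.9) there in males and from 13.6 to 26.8 CPM (median 19.2) in the gastrocnemius, and was 0.46 (adjusted p = 1.85e-21) higher in males and 0.44 (adjusted p = 9.34e-26) higher in females. The ranges overlapped, but the medians were well apart. Its partner Rps27 differed in the opposite direction, by -0.64 in both sexes. Rps27l and, in males, Rpl39l were the genes of the set higher in the tibialis anterior under all 4 scalings. Rpl35 was called higher there at 0.33 and 0.28 with TMM but not with library totals.

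In the soleus Rps13, a small-subunit protein, ran from 66 to 99.9 CPM (median 83.9) in males against 50.8 to 72.8 CPM (median 56.7) in the gastrocnemius. It was 0.55 (SE 0.026, adjusted p = 4.01e-49) higher in males and 0.61 (SE 0.026, adjusted p = 5.85e-56) higher in females, with overlapping ranges. Rps19, the gene most often mutated in Diamond-Blackfan anaemia, was 0.29 and 0.28 higher in the soleus and 0.28 and 0.40 higher in the diaphragm. Rpl23a, Rpl36a and Rps4x were also higher in both muscles and both sexes, and Rpl39 was 0.40 and 0.61 higher in the diaphragm.

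Among the genes lower in the soleus were the small stalk proteins. Rplp2 ran from 2.7 to 9.86 CPM (median 6.45) in the male soleus against 13.2 to 28.6 CPM (median 15.5) in the gastrocnemius, so that the libraries did not overlap, and its difference was -1.29 (SE 0.072, adjusted p = 1.86e-41) in males and -1.11 (SE 0.074, adjusted p = 4.36e-33) in females. Rplp1 differed by -1.19 and -0.99, while the values of Rplp0 were 0.03 (adjusted p = 0.624) and -0.05 (adjusted p = 0.489). Rpl37, a zinc-finger protein of the large subunit, ran from 1.29 to 6.13 CPM (median 3.26) against 6.18 to 12.2 CPM (median 8.06) without overlap and differed by -1.32 (adjusted p = 5.69e-39) and -1.12 (adjusted p = 9.05e-36). In the diaphragm Rplp2 differed by -1.05 and -0.97 and Rpl36 by -1.20 and -1.21, the latter with a male range of 0.131 to 16.6 CPM against 19.8 to 37.9 CPM in the gastrocnemius. Rpl4 ran from 98 to 248 CPM (median 154) in the male diaphragm against 223 to 326 CPM (median 296) and differed by -1.01. Across the genes the difference between diaphragm and gastrocnemius had a Spearman correlation of -0.35 in males and -0.42 in females with GC content. Rpl30 was 1.57 and 2.02 higher in the diaphragm, which became 0.91 and -0.87 without the libraries that stood apart.

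**Figure D5:**
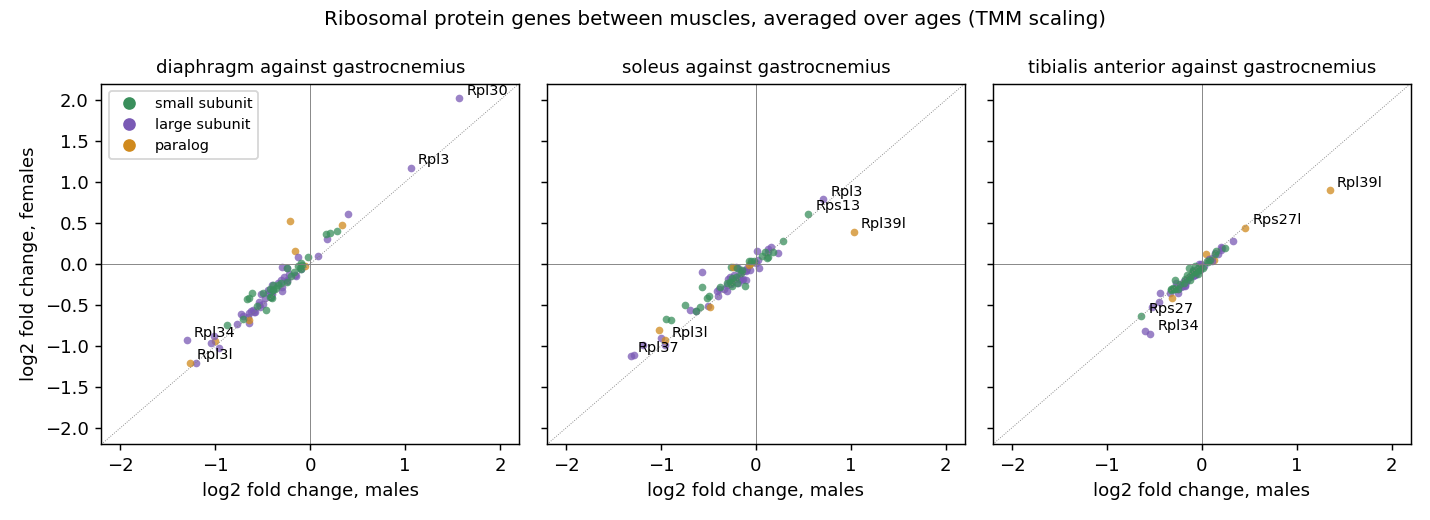
Log2 difference from the gastrocnemius in males (horizontal axis) and females (vertical axis) of each ribosomal protein gene, in 3 panels for diaphragm, soleus and tibialis anterior, 1 point per gene coloured as small subunit, large subunit or paralog. Rpl3 lies at the upper right and Rpl3l at the lower left in the diaphragm and soleus, Rps27l at the upper right in the tibialis anterior, and the genes fall along the diagonal, so that the sexes had like differences.

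Whether the change from 6 to 27 months differed between a muscle and the gastrocnemius was tested as an interaction in the same fits. In males the diaphragm differed in 6 genes, all with the larger rise in the diaphragm, where 3.44% of all genes differed in either direction. Among them were Rpl17 (0.42, adjusted p = 0.00185), Rpl4 (0.36, adjusted p = 0.00137), Rpl9 (0.27, adjusted p = 0.0144), Rps10 (0.46, adjusted p = 0.0218) and Rpl30 (4.39, adjusted p = 0.0401). At an unadjusted p under 0.05 there were 28. None of these 5 was called under all 4 scalings, and without the libraries that stood apart Rpl4, Rpl17 and Rpl8 were called. In females the diaphragm differed in Rpl30 alone (6.36, adjusted p = 0.00151), where 3.2% of all genes differed, and the old female group held 1 library at 175 CPM, which stood apart, with the others at most at 0.76 CPM. Without the libraries that stood apart 8 other genes were called, among them Rpl4, Rpl12, Rpl15, Rpl17, Rpl29, Rplp0 and Rps2.

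No gene of the set passed edgeR's quasi-likelihood test for a different age change in the male soleus, where 0.594% of all genes did, the female soleus (5.51%), the male tibialis anterior (0%) or the female tibialis anterior (0.57%). At an unadjusted p under 0.05 there were 1, 3, 0 and 4 genes, and limma-voom also called none. The rise in the tibialis anterior and the fall in the gastrocnemius of females are therefore not shown to differ gene by gene.

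Females had higher levels of these genes than males in the limb muscles, with the ages weighted equally. In the gastrocnemius 49 genes were higher and 6 lower in females, where 31.9% of all genes were higher and 26.4% lower. In the soleus 48 were higher and none lower, where 16.3% of all genes were higher and 14.6% lower. In the tibialis anterior 53 were higher and 2 lower, where 23.6% of all genes were higher and 24.2% lower. The medians of the set were 0.07, 0.10 and 0.08 on the log2 scale. Slow-fibre markers had summed medians of 345 CPM in males and 950 CPM in females of the gastrocnemius, 7930 and 12600 CPM in the soleus, and 12.1 and 35.3 CPM in the tibialis anterior, and their part in the result was not tested. In all 3 muscles 35 genes were higher, 16 of the small and 19 of the large subunit and no paralog. Under each of the 4 scalings 48, 44 and 53 genes were higher, so that this direction did not rest on the scaling. In the diaphragm 1 gene, Rpl34, was higher (0.58, adjusted p = 0.0345) and none lower, where 10.3% of all genes were higher and 8.55% lower, and without the libraries that stood apart 5 were higher and 3 lower.

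Rplp0 ran from 174 to 234 CPM (median 198) in the male and from 210 to 266 CPM (median 240) in the female tibialis anterior, which is a log2 difference of 0.25 (adjusted p = 1.87e-23), and it differed by 0.22 (adjusted p = 3.56e-20) in the gastrocnemius. Rps2 ran from 246 to 330 CPM (median 295) in males and from 297 to 411 CPM (median 351) in females in the tibialis anterior, a difference of 0.26 (adjusted p = 4.99e-26), and differed by 0.20 (adjusted p = 2.48e-14) in the gastrocnemius. For both genes the sexes overlapped, but the median of females lay above all males of the tibialis anterior. Rpsa was 0.18 (adjusted p = 6.04e-15) and Rpl26 0.15 (adjusted p = 2.58e-17) higher in the tibialis anterior, and Rpl7 0.16 (adjusted p = 1.19e-18) higher in the gastrocnemius. Rpl3 was 0.16 (adjusted p = 5.87e-05) higher in the gastrocnemius and 0.22 (adjusted p = 0.000316) higher in the soleus.

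Rps14 went the other way. It ran from 59.9 to 87.9 CPM (median 68.2) in the male and from 53.6 to 74.1 CPM (median 60.7) in the female gastrocnemius, a difference of -0.17 (adjusted p = 1.77e-13), and was -0.05 (adjusted p = 0.0181) in the tibialis anterior. Rpl22l1 was lower in females in both muscles, by -0.11 (adjusted p = 0.0349) and -0.14 (adjusted p = 0.00223), and Rpl3l was lower in the gastrocnemius by -0.10 (adjusted p = 4.46e-05). Of these, Rps14 and Rpl3l in the gastrocnemius were lower under all 4 scalings, and no gene was lower in the tibialis anterior under library totals.

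The change with age differed between the sexes in 1 gene of the gastrocnemius, where 1.6% of all genes differed in either direction. Rpl12 had medians of 63 CPM (61.5 to 69.8) and 64.8 CPM (59.8 to 73) in males at 6 and 27 months and fell in females as given above, and the female change was lower by -0.23 (SE 0.058, adjusted p = 0.0201). This call was lost under library totals alone (-0.17, adjusted p = 0.211). In the gastrocnemius 19 genes, Rpl12 included, had an unadjusted p under 0.05. By edgeR's quasi-likelihood test no gene of the set differed in the diaphragm, where 0% of all genes did, the soleus (0.855%) or the tibialis anterior (1.73%), limma-voom called none there, and 1, 17 and 1 genes had an unadjusted p under 0.05.

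Other lists of genes used to build and run ribosomes were followed at 27 against 6 months on the same fits. Ribosome biogenesis factors process rRNA and assemble the subunits in the nucleolus. Of 45 tested, 21 rose and none fell in the male tibialis anterior, where 9.97% of all genes rose, with a median log2 fold change of 0.16, and 12 rose and none fell in females, where 12.1% of all genes rose. In the male gastrocnemius 13 rose and 2 fell (10.6% and 12.6% of all genes), in the male soleus 5 rose (1.8%), in the female soleus 8 rose and 1 fell (10% and 8.74%), and in the male diaphragm 3 rose (5.13%). In the female gastrocnemius 5 rose and 6 fell, where 14.6% of all genes rose and 14.6% fell, so that neither count stood above that of all genes, and none was called in the female diaphragm. The counts of the next lists stand beside the same shares of all genes. Nop14, a factor of small-subunit assembly, rose in the male tibialis anterior (0.40, adjusted p = 9.45e-05) and female soleus (0.31, adjusted p = 0.00011). Gnl2, a GTPase of large-subunit assembly, rose in the male tibialis anterior (0.35, adjusted p = 0.000174) and gastrocnemius (0.28, adjusted p = 0.000944). In the female gastrocnemius Lyar fell (-0.30, adjusted p = 3.08e-06) while Rrp12 rose (0.37, adjusted p = 1.75e-05).

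Of 17 genes of RNA polymerase I and its factors, which transcribe rRNA, 4 rose in the male gastrocnemius, 4 in the male tibialis anterior and 4 in the female soleus, where 1 fell, while 1 rose and 3 fell in the female gastrocnemius. Mybbp1a, a nucleolar regulator of this polymerase, rose in the gastrocnemius (0.22, adjusted p = 0.0087), tibialis anterior (0.25, adjusted p = 0.00138) and soleus (0.23, adjusted p = 0.00423) of males and in the soleus (0.19, adjusted p = 0.000711) and tibialis anterior (0.12, adjusted p = 0.0225) of females. Of 15 other TOP mRNAs tested, 8 rose in the male tibialis anterior, 4 rose and 2 fell in the male gastrocnemius, and 1 rose in the female tibialis anterior. In the female soleus 3 rose and none fell, and in the female gastrocnemius 2 rose and 1 fell. In the male soleus and the male diaphragm 1 rose, and none was called in the female diaphragm. The host gene of small nucleolar RNAs Gas5 rose in the male gastrocnemius (0.48, adjusted p = 0.00237) and in the tibialis anterior of both sexes (0.47, adjusted p = 0.0103, and 0.26, adjusted p = 0.00619). Of 8 elongation factor genes, 2 rose in the tibialis anterior of each sex. Eef1a1 rose in the male gastrocnemius (0.33, adjusted p = 0.000939) and female tibialis anterior (0.18, adjusted p = 0.0242), and Eef2 in the male tibialis anterior (0.12, adjusted p = 0.0201).

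Of 23 genes of mTORC1 signalling and translation initiation, 8 rose and 1 fell in the male tibialis anterior, 6 rose and 2 fell in the female tibialis anterior and in the male gastrocnemius, 6 rose and 4 fell in the female gastrocnemius, and 6 rose in the female soleus. Eif4a1, the helicase of the cap-binding complex, rose in the gastrocnemius of males (0.50, adjusted p = 9.07e-07) and females (0.29, adjusted p = 5.36e-06) and in the tibialis anterior of males (0.47, adjusted p = 0.0001) and females (0.31, adjusted p = 0.000126). Mknk2, a kinase of the cap-binding protein, rose in the gastrocnemius of males (0.68, adjusted p = 4.52e-05) and females (0.76, adjusted p = 2.09e-09).

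The genes of the mitochondrial ribosome, a separate particle that translates the mitochondrial genome, were followed as well. Of 77 tested, none rose and 8 fell in the male tibialis anterior, where 9.97% of all genes rose and 7.81% fell, a count of falls near that share. In the female tibialis anterior 1 rose and 13 fell, where 12.1% of all genes rose and 9.84% fell. In the male gastrocnemius 1 rose and 16 fell, where 10.6% of all genes rose and 12.6% fell, and in the female gastrocnemius 2 rose and 20 fell, where 14.6% rose and 14.6% fell. None was called in the male soleus or the female diaphragm. In the male diaphragm 3 fell, where 3.52% of all genes fell. In the female soleus 4 rose and 3 fell, where 10% of all genes rose and 8.74% fell. Mrpl19 fell in the male tibialis anterior (-0.35, adjusted p = 0.00025), Mrps9 in the female tibialis anterior (-0.24, adjusted p = 4.3e-05) and Mrpl42 in the female gastrocnemius (-0.37, adjusted p = 1.76e-06).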

How the data were processed

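Total RNA of 4 muscles of male and female C57BL/6J mice at 6 ages was sequenced from strand-specific libraries after ribosomal RNA removal. The authors deposited raw read counts per gene and library, made with the RNA-seq pipeline of ArrayStudio on their own gene model, which was based on RefSeq, and the submitters' processing notes name the genome build mm10. Not given in the sources used here is how reads with several matches were counted. These tables had 25091 lines for 24458 symbols, and no ribosomal protein gene was on several lines. Groups came from the sample labels. Rat libraries were not analysed here.

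Counts were scaled with TMM and tested with edgeR 4.0.16 (quasi-likelihood test, R 4.3.3) in 1 fit per muscle and sex for age, 1 per sex for muscles and 1 per muscle for sex, after edgeR's filter on low counts, with Benjamini-Hochberg adjustment over all genes tested. CPM values of single genes are on TMM factors over all libraries, and sums over marker genes are on library totals alone. Levels per kilobase and GC content use the principal transcripts of the GENCODE annotation. Library totals were 38583802 to 300089909. Where the labels do not tie libraries to mice, p-values measure the spread between libraries. On simulated counts for the male gastrocnemius (27 against 6 months, 14992 genes), edgeR recovered 100% of genes changed 2-fold and 3-fold, 62% of those changed 1.5-fold and 10% of those changed 1.25-fold. Every simulated gene was given the same spread, which was not taken from the ribosomal protein genes. These shares therefore do not say how small a change could be called in the set.

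Alternatives were RLE size factors, TMM computed without the ribosomal protein genes, no filter, limma-voom (limma 3.58.1), DESeq2 1.42.0, the replicate number as a block, the run of sample numbers as a term and Bonferroni adjustment. Library totals alone, offsets for transcript GC content in 20 bins, leaving out the 10 libraries that stood apart and the test of the ratio of Rpl3l to Rpl3 were added after seeing the data. The genes and lists were chosen with earlier results of these data known. Genes named with values were the paralog pairs, stalk proteins, Rpsa, Rps6, Rps27a and Rpl13a; in each muscle and sex at 27 months the 5 called genes with the smallest p in each direction; genes with a fold above 1.5; between muscles or sexes the 5 called genes with the largest differences in each direction; the 5 called genes with the smallest p of each interaction; and the 2 called genes with the smallest p of each other list. Genes at other ages and a few others, such as Rpl17 and Rpl19 in the male tibialis anterior, were named after their values were seen. Counts cover the whole set, and 2 of its genes are not reported by name here. Sequences around transcription starts are from RefSeq (GRCm38.p6).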

Additional observations from a re-analysis of the deposited data

Results flagged for a closer look

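In each group of 6 to 10 libraries the mean log2 CPM of the 77 core genes and the log2 ratio of Rpl3l to Rpl3 were checked for a library far from the others. Of 96 checks 10 found one, where chance finds about 1 in 20. For the mean of the core genes 7 libraries lay far from their group. In the female diaphragm they were replicate 0 at 21 months (4.83), replicate 0 at 27 months (4.37) and replicate 2 at 6 months (4.26), and in the male diaphragm replicate 2 at 6 months (3.49), all 4 of which are among the libraries that stood apart by their GC slope. The others were replicate 0 of the male gastrocnemius at 18 months (5.81), replicate 5 of the male soleus at 12 months (5.03) and replicate 3 of the male soleus at 21 months (5.59).

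The log2 ratio of Rpl3l to Rpl3 was far below that of the other libraries in 3 cases, replicate 8 of the male diaphragm at 27 months (-3.0), replicate 8 of the male soleus at 24 months (-0.97) and replicate 7 of the female diaphragm at 21 months (-1.03). None of these 3 is among the libraries that stood apart.

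For genes named here, the change from 6 to 27 months differed between groups in 7 cases by edgeR's quasi-likelihood test of the interaction. Between the male diaphragm and gastrocnemius these were Rps10 (0.46), Rpl17 (0.42), Rpl4 (0.36), Rpl9 (0.27) and Rpl30 (4.39), between the female diaphragm and gastrocnemius Rpl30 (6.36), and between females and males of the gastrocnemius Rpl12 (-0.23). Both calls of Rpl30 were lost without the libraries that stood apart.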

How the results depend on the processing

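Of 446 values of named genes at 27 against 6 months under the alternatives, 363 kept their direction and their side of the threshold, 81 kept the direction and were no longer called, and 2 reversed. The reversed ones were those of Rpl30 in the male diaphragm (-0.26 with DESeq2 and -0.29 without the libraries that stood apart). Between muscles, Rpl30 also reversed in the female diaphragm against gastrocnemius, from 2.02 to -0.87 without those libraries. Of 722 counts and medians, 624 stayed within 1.5 times or the spread between libraries and 98 did not, and for these the cause was not tested except where it lies in the construction (a stricter adjustment, fewer libraries). Groups held 6 to 10 libraries, so that leaving out single replicates was not run. Low counts limit Rpl39l and Rpl10l, and the counts of Rpl30 are taken as uncertain, as given above. DESeq2 was run on the age comparisons.

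With Bonferroni adjustment the genes higher at 27 months numbered 0 in the male diaphragm, 1 in the male gastrocnemius, 0 in the male and 1 in the female tibialis anterior, and 0 were lower in the male gastrocnemius, male soleus, female gastrocnemius, female soleus and female tibialis anterior, and 0 passed the fold limit at any age in the male diaphragm and female soleus. RLE size factors gave 1 lower in the male gastrocnemius, 14 higher in the male diaphragm against gastrocnemius and 9 higher in the male tibialis anterior. Without the filter 5 were higher in the male diaphragm and 1 lower in the male gastrocnemius. limma-voom gave 3 higher in the male diaphragm and 0 past the fold limit there, 0 in the female diaphragm interaction, 0 higher in the female diaphragm against males, and 2 lower in the sex interaction of the gastrocnemius. DESeq2 gave 4 higher in the male gastrocnemius and 1 in the female soleus. With the run of sample numbers as a term 0 were higher in the male diaphragm.

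The replicate numbers were not treated as pairing the libraries. Deviations of same-numbered libraries had mean correlations of 0.15 to 0.42 between limb muscles and of -0.022 to 0.035 with the diaphragm, and the lowest single correlation was -0.6 with the diaphragm and -0.28 between limb muscles. Between gastrocnemius and tibialis anterior 50 of 51 male and 44 of 51 female pairs were over 0.1, and 33 and 41 libraries correlated best with their own number, a hint from the data and not from the design. With the replicate block, 1 gene was higher in the male diaphragm, 0 passed the fold limit there and 0 in the male gastrocnemius, 1 was higher in the female soleus and 24 in the female tibialis anterior, 0 differed in the female diaphragm interaction, 0 were higher in the female diaphragm against males, and 2 and 4 were lower in the sex interaction of the gastrocnemius and in females of the tibialis anterior.

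With library totals alone, the counts at 27 months were 3 higher and 1 past the fold limit in the male diaphragm, 7 higher and 0 lower in the male gastrocnemius, 1 past the fold limit in the female diaphragm, 5 higher and 0 lower in the female gastrocnemius (median 0.04), 73 lower and 4 past the fold limit in the female soleus (median -0.27), and 20 higher, 0 lower and 1 past the fold limit in the female tibialis anterior. Against the gastrocnemius they were 64 higher and 7 lower in the male diaphragm (median 0.34), 29 and 23 in the male soleus (0.04), 2 and 75 in the male tibialis anterior (-0.34), 64 and 6 in the female diaphragm (0.37), 32 and 18 in the female soleus (0.06), and 1 and 70 in the female tibialis anterior (-0.32). The interactions gave 1 higher in the male diaphragm, a median of -0.09 in the female diaphragm, and 15 lower with a median of -0.33 in the female soleus. Between the sexes 15 were higher in the diaphragm, 2 lower in the gastrocnemius, 74 higher in the soleus and 0 lower in the tibialis anterior, and the sex interaction gave 0 lower in the gastrocnemius and 16 lower with a median of -0.33 in the soleus.

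With GC offsets 6 were higher in the male gastrocnemius and 16 lower in the female soleus at 27 months. Against the gastrocnemius 30 were higher and 35 lower in the male diaphragm (median -0.01), 27 and 38 in the female diaphragm (-0.03), and 22 and 17 higher in the male and female soleus, with 1 higher in the female soleus interaction. Between the sexes 8 were higher in the diaphragm, 1 lower in the soleus and 1 lower in the tibialis anterior, with 5 lower in the sex interaction of the gastrocnemius. Without the libraries that stood apart 1 passed the fold limit in the male diaphragm and 4 were higher in the male gastrocnemius, the interactions gave 3 higher in the male diaphragm, 8 in the female diaphragm and 1 in the female soleus, and between the sexes 5 were higher and 3 lower in the diaphragm.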
